A study of Mus musculus with 16 samples.

Results

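Small heat shock proteins, heat shock factors, the co-chaperone Bag3, the collagen chaperone Serpinh1 and the mitochondrial chaperonin were described in the retina of mice from a spaceflight study. The 9 genes were taken by symbol from the authors' deposited table of 25905 genes, and all 9 were listed there: Hspb1, Hspb6, Hspb8, Bag3, Hsf1, Hsf2, Serpinh1, Hspd1 and Hspe1. RNA was sequenced from the retina of the right eye of wild type C57BL/6 males, given as 10 weeks old in the labels, which per the study is their age at launch. The spaceflight group of 8 libraries came from animals kept in rodent habitats on the International Space Station for several weeks and killed after their return. The ground control group of 8 libraries came from animals kept on Earth in the same hardware and on the same diet. Flight, landing and the hours between landing and dissection cannot be told apart in this design. The columns of the deposited counts carry laboratory codes that match no sample label, so neither the values per mouse nor a difference between spaceflight and ground control was analysed here. What follows describes the level of each gene over all 16 libraries together, as the authors' mean of normalized counts, and the sequence features that bear on it.

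Heat shock proteins are chaperones, which keep other proteins from aggregating or help them fold. Small heat shock proteins hold unfolded clients without using ATP and pass them on to HSP70. Heat shock factors are transcription factors that bind repeats of a short DNA unit, the heat shock element, in the promoters of chaperone genes and raise their transcription under stress. HSP60 and HSP10 form a chamber in the mitochondrial matrix in which imported proteins fold. In the retina, photoreceptors renew their outer segments throughout life and make large amounts of protein.

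The heat shock elements near the starts of these genes are shown first, because they are the sequence that heat shock factors recognise. Promoter windows of RefSeq on assembly GRCm38.p6, from 250 bases before to 50 bases after an annotated start, were matched by symbol for 8 of the 9 genes, in 10 windows. A pair of facing units was searched as GAANNTTC or TTCNNGAA, which read the same on both strands. At least 1 pair was found for 6 genes, Hspb1, Hspb6, Hspb8, Bag3, Hspd1 and Hspe1, and none in the windows of Hsf2 and Serpinh1. The window of Serpinh1 is that of the start at base 99353239. Other counted Serpinh1 transcripts begin in GENCODE at base 99353114, outside this window, so the sequence around their start was not fully searched. Of all 32851 promoter windows in the RefSeq table, 15.1% held such a pair, and of the 10 windows of these genes 60.0% did. By gene, 4587 of all 27025 genes with a window held a pair, so a single pair is a common sequence. The stretches below run 5′ to 3′ on the strand of the gene, with the matched pairs in capitals.

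Hspe1, chr1:55088048-55088087, plus strand: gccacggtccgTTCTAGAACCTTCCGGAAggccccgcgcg
Hspd1, chr1:55088048-55088087, minus strand: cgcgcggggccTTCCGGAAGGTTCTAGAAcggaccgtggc
Hspb1, chr5:135887791-135887840, plus strand: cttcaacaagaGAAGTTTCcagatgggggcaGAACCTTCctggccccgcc
Hspb6, chr7:30553170-30553199, plus strand: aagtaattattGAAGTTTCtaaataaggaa
Hspb8, chr5:116422844-116422873, minus strand: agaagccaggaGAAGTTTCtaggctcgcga
Bag3, chr7:128523614-128523632, plus strand: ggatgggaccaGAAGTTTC

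The stretches of Hspe1 and Hspd1 are the 2 strands of 1 stretch of DNA. It holds 4 alternating units in a row over 18 bases, which gives 3 overlapping pairs. These 2 genes, which encode HSP10 and HSP60, lie head to head on chromosome 1, and in their GENCODE transcripts the element sits between both starts. Its first base is 89 bases before the annotated start of Hspe1 and, read on the other strand, 144 bases before 1 of the 2 annotated starts of Hspd1. The window of the other Hspd1 start, at base 55088243, held no pair. Seen from that start, the element lies after it and outside the window. In these GENCODE transcripts, which were matched to the RefSeq entries that the authors counted, the first bases of Hspd1 and Hspe1 are 108 bases apart. A run of 4 units, a form chosen after the sequences were seen, was found in 8 of the 32851 windows (0.0244%), and 2 of the 8 were these windows of Hspd1 and Hspe1. A run of 3 units was found in 0.603% of all windows.

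Hspb1, Hspb6, Hspb8 and Bag3 held pairs but no run of 3 units within their windows. Hspb1, which encodes the small heat shock protein HSP25, had 2 pairs, with first bases at 117 and 97 bases before its start. Hspb6, which encodes HSP20, had 1 pair at 120 bases before 1 of its 2 annotated starts. Counted from the annotated RefSeq start, the pair began at base 3 in Hspb8, which encodes HSP22, and at base 43 in Bag3, so both lie after that start. The GENCODE transcript matched for Bag3 begins later, at base 128523616 of chromosome 7. The pair, from base 128523625, lies after this start too. The pair of Bag3 ends at the last base of its window, so the sequence after it was not searched. The same 8 letters, GAAGTTTC, were matched in Hspb1, Hspb6, Hspb8 and Bag3. These matches describe letters in a window, and binding by a heat shock factor was not measured here.

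**Figure D1:**
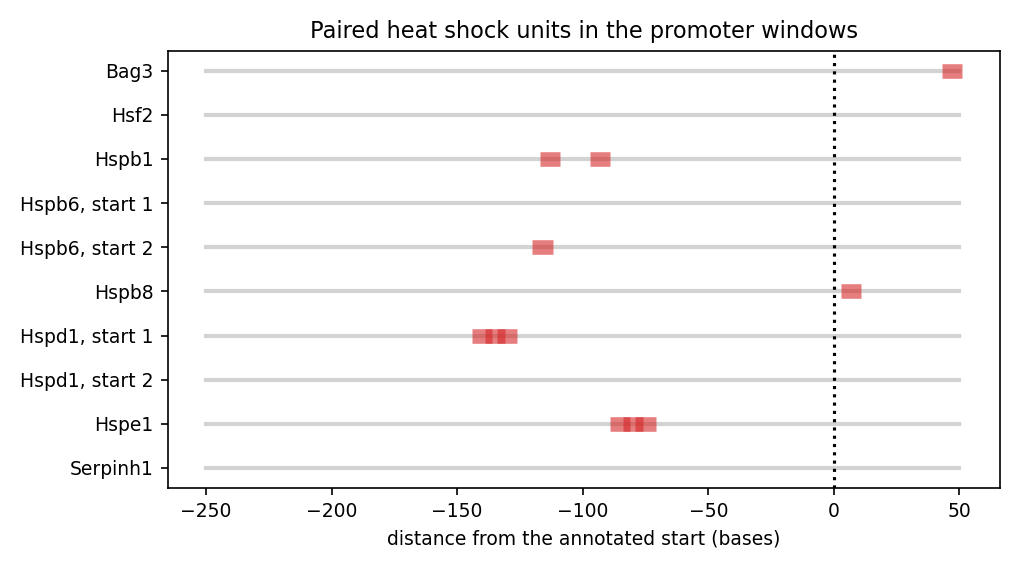
Position of paired heat shock units (red) in the RefSeq promoter windows of 8 genes, plotted as distance in bases from the annotated start (dotted line), with 1 grey line per window and 2 windows for Hspb6 and Hspd1. The overlapping pairs of Hspe1 and Hspd1 stand before the start, and the pairs of Hspb8 and Bag3 lie after it.

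The level of a gene is given as the authors' mean of counts divided by size factors over all libraries, named here the mean normalized count, and for the order of the 9 genes and ratios between genes, as this mean per kilobase of transcript. Ranks, medians of lists and counts of genes at 10 or more use the mean normalized count, which is not scaled to length. Of all genes listed, 19667 were above 0, with a median mean normalized count of 41.8, and the means summed to 6995811. The precision given is that of counting alone, a 95% Poisson interval computed as if 16 times the mean were the reads counted. It leaves out the spread between mice, which was not analysed here, so it is too narrow as an error of the retina's level. Since these are whole retinas, fewer cells of a type and less RNA per cell cannot be told apart. Most markers of the labelled tissue were high. Gnat1, the transducin subunit of rods, had a mean normalized count of 154477, Sag, the rod arrestin, was at 29757, and all 5 cone markers lay between 537 and 2800. The rod factor Nrl was lower, at 88.9, and Rlbp1 of Müller glia and Rbpms of ganglion cells were under 10, at 1.39 and 5.53. Nrl, Rlbp1 and Rbpms have several transcript rows in the count table, a feature taken up with Serpinh1. Markers of neighbouring tissues were present too, and the highest of each list were the lens crystallin Cryaa at 898, Ttr of the pigment epithelium at 540, Col1a2 of fibroblasts at 38.0, Krt12 of the cornea at 11.9 and Acta1 of skeletal muscle at 8.94. Their part in the levels below was not tested.

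Of the 9 genes, 8 had a mean normalized count of at least 10, and 7 lay above the median of the genes above 0. A mean of at least 10 was reached by 47.8% of all genes listed and by 62.9% of the genes above 0. Hspb6 had the highest mean normalized count, 44.9% of the sum over the 9 genes, and 50.4% of the sum of means per kilobase. Serpinh1 had the lowest, at 0.439. Per kilobase of transcript, the order from high to low was Hspb6, Hspe1, Hspd1, Hsf1, Hsf2, Hspb1, Bag3, Hspb8 and Serpinh1. Among neighbours in this order, the counting intervals of Hspe1 and Hspd1 overlapped and those of the other 7 pairs did not. The closest of these 7 pairs was Hsf2 and Hspb1, at a ratio of 1.11. Parts of Hspb1, Hspd1 and Hspe1 are also found in other genes, as described below, so their places in the order carry that uncertainty too. Whether any neighbours differ beyond the spread between mice was not analysed here.

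**Figure D2:**
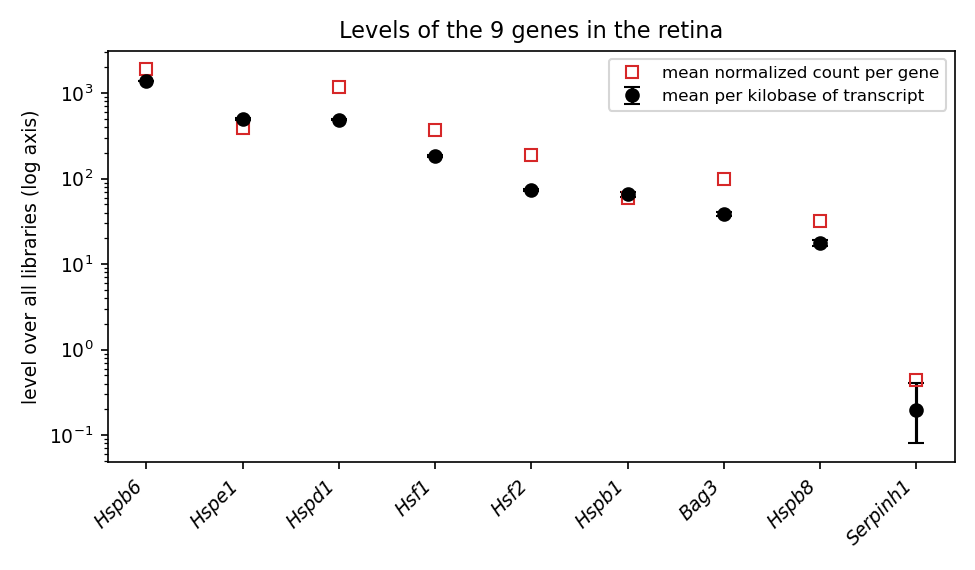
Level of each of the 9 genes over all 16 libraries on a log axis, as the authors' mean normalized count (red squares) and as that mean per kilobase of transcript (black circles, bars are 95% Poisson intervals for counting error only). Hspb6 is highest at 1386 per kilobase, Hspe1 and Hspd1 lie together at 501 and 486, and Serpinh1 is lowest at 0.199.

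Among the small heat shock proteins, Hspb6 was higher per kilobase than Hspb1 and Hspb8 and than the alpha-crystallins Cryab and Cryaa, to which these proteins are related. Its mean normalized count was 1889 (counting interval 1867 to 1910), higher than 97.1% of the genes above 0, and it took rank 571 in the table. HSP20 is known from smooth, cardiac and skeletal muscle, where kinases phosphorylate it during relaxation. The skeletal muscle markers Acta1, Myh4, Ckm and Tnnt3 were all under 10 in these retinas. Of the 6 markers of smooth muscle and pericytes, 3 were at 10 or more, led by Rgs5 at 282, and Myh11 and Pdgfrb were listed at 0. Myh11, Pdgfrb and the skeletal muscle marker Tnnt3, also listed at 0, have several transcript rows in the count table. This feature is taken up with Serpinh1, and values of such genes cannot be read as absence. The summed mean normalized count was 393 for these 6 markers and 20.6 for the 4 skeletal muscle markers, and the part of muscle or vessel cells in the level of Hspb6 was not tested. Per kilobase, Hspb6 was 1.57 times as high as Cryab, which is made in glia and lens, and 1.95 times as high as Cryaa, which is best known from lens.

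Hspb1 encodes a stress-inducible small heat shock protein that binds actin filaments and is known from glia and ganglion cells of the injured retina. Its mean normalized count was 59.5 (counting interval 55.7 to 63.4). Per kilobase of transcript, Hspb6 was 21.0 times as high as Hspb1, and per kilobase of coding sequence 41.0 times as high. Hspb8 forms a complex with the co-chaperone BAG3 that passes misfolded proteins to autophagy. Its mean was 32.2 (counting interval 29.4 to 35.1), the lowest of the 8 genes above 10 and below the median of the genes above 0. Hspb6 was 78.3 times as high per kilobase as Hspb8.

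Of the rest of the family, set down as 5 further small heat shock protein genes without the crystallins, 4 had a mean normalized count under 10. Hspb11, which despite its name belongs to the intraflagellar transport machinery of cilia, had a mean normalized count of 96.2 and was the only one of the 5 at 10 or more. Hspb3 and Hspb7, known from muscle, had means of 4.39 and 0.783, and Hspb9, known from testis, was listed at 0. Hspb2 was at 0.180 and had 2 transcript rows.

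Bag3 bridges HSP70 and small heat shock proteins and is induced by heat shock factor 1. Its mean normalized count was 99.2 (counting interval 94.4 to 104), above 59.9% of the genes above 0. Per kilobase, Bag3 was 2.19 times as high as its partner Hspb8. With coding length in place of transcript length this ratio was 1.05, since most of the Hspb8 transcript is untranslated. The 7 genes set down for chaperone-assisted autophagy were all at 10 or more, against 47.8% of all genes listed. Their median mean normalized count was 642. Hspa8, the constitutive HSP70 that BAG3 binds, led them at 8922, and was 96.3 times as high per kilobase as Bag3. Sqstm1, an autophagy receptor, had a mean of 1388, and Map1lc3b, a protein of the autophagosome membrane, had 1267. Of the other BAG genes, Bag4 was at 365, Bag5 at 305 and Bag2 at 50.5. Bag1, with 2 transcript rows, was listed at 0, and Bag6 was not found under that symbol.

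Both heat shock factors were at 10 or more. Hsf1, the main regulator of the response to heat and proteotoxic stress, had a mean normalized count of 367 (counting interval 357 to 376), above 80.3% of the genes above 0. Hsf2, a factor with roles in development that can form mixed trimers with HSF1, had a mean of 191 (counting interval 184 to 198). Per kilobase, Hsf1 was 2.48 times as high as Hsf2. Both transcripts have 12 exons in the matched GENCODE entries, and neither shared sequence with another gene over the length of a read. In the list of other factors, Hsf4, which controls lens fibre genes, had a mean of 58.2, while Hsf5 was at 5.51, Hsf3 at 0.354 and Hsf2bp between them. Hsbp1, a small protein that binds the trimerization domain of HSF1, was at 798.

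The stress-inducible targets of HSF1 were abundant as a list. All 17 genes were at 10 or more, against 47.8% of all genes listed. Their median level was 1535, against 191 for the 9 genes described here and 41.8 for all genes above 0. Hsp90aa1, an HSP90 chaperone, was at 19758, Hspa8 at 8922 and the polyubiquitin gene Ubb at 5828. Of these 17 genes, 11 had a promoter window, 6 held a pair of heat shock units, and 2, Chordc1 and Hsph1, held a run of 3. Of all 27025 genes with a window, 4587 held a pair and 179 a run of 3. Among the 9 genes the runs of 3 were those of Hspd1 and Hspe1.

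**Figure D3:**
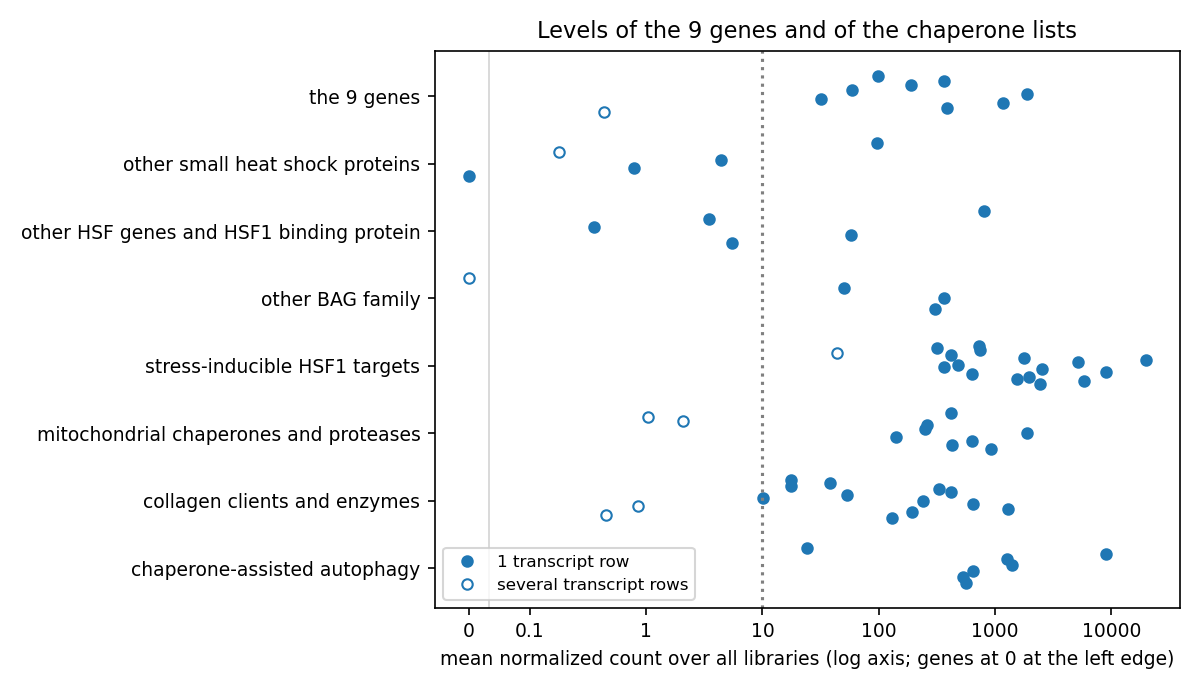
Mean normalized count over all 16 libraries (log axis, genes at 0 at the left edge) of the 9 genes and of 7 lists of related genes, with 1 point per gene and open points for genes with several transcript rows in the count table. The dotted line marks a mean of 10. All HSF1 targets lie to its right, and Serpinh1 is the open point of the 9 genes at 0.439.

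The chaperonin genes came next after Hspb6, both by mean normalized count and per kilobase. Hspd1, which encodes the HSP60 ring, had a mean normalized count of 1179 (counting interval 1162 to 1196), above 94.2% of the genes above 0. Hspe1, which encodes the HSP10 lid, had a mean of 388 (counting interval 379 to 398). The transcript of Hspd1 is 2423 bases long and that of Hspe1 774 bases. Per kilobase the 2 genes were close, at 486 for Hspd1 and 501 for Hspe1, a ratio of 1.03 for Hspe1 over Hspd1. With coding length in place of transcript length the ratio was 1.85. Of 10 further mitochondrial chaperones and proteases, 8 were at 10 or more, against 47.8% of all genes listed. Hspa9, the mitochondrial HSP70, was highest at 1886, followed by Yme1l1, a protease of the inner membrane, at 915 and Lonp1, a matrix protease, at 631. The other 2, Clpx at 1.04 and Dnaja3 at 2.09, each had 2 transcript rows.

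Parts of Hspb1, Hspd1 and Hspe1 are also found in other genes, and reads from those parts cannot be placed in 1 gene by sequence alone. The transcript of each gene was divided into all windows of 75 bases, the length of the reads, and each window was searched for an exact match in transcripts of other genes in GENCODE. In Hspb1, 57.7% of 829 windows were also in the processed pseudogene Hsp25-ps1 on the same strand, and 42.9% were in Gm9817 on the opposite strand. Some windows were in both of these genes, so the shares cannot be added. In Hspd1, 33.7% of 2349 windows were also in processed pseudogenes, mostly in Hspd1-ps3 with 32.5%. In Hspe1, 23.7% of 700 windows were shared with AC117239.2, and 5.43% lay on the opposite strand of a transcript of Hspd1. The paper describes its libraries as stranded, which bears on windows shared on the opposite strand. Whether the counting used the strand is not given in the sources used here. The means of these 3 genes are therefore uncertain to a degree that was not measured. The same holds for their places in the order and for the ratios that use them. In Hspb6, Hspb8, Bag3, Hsf1, Hsf2 and Serpinh1, 0 windows were shared.

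**Figure D4:**
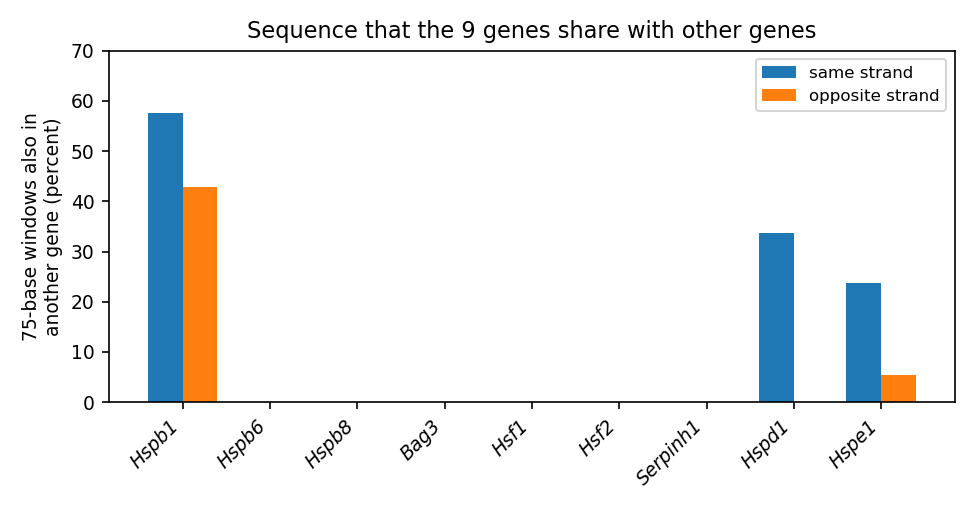
Share of the 75-base windows of each of the 9 genes, in percent, that is found without mismatch in a transcript of another gene in GENCODE, on the same strand (blue) or the opposite strand (orange). Hspb1 has the highest share at 57.7%, and 6 of the 9 genes have none.

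Serpinh1 encodes HSP47, a chaperone of the endoplasmic reticulum that binds procollagen and is known from collagen-producing cells. Its mean normalized count of 0.439 (counting interval 0.177 to 0.903) comes to 7.02 normalized reads over all 16 libraries, and it was higher than 12.4% of the genes above 0. The 14 genes set down as its clients and the enzymes that modify them were mostly measured, with a median of 91.6. Of these, 12 were at 10 or more, against 47.8% of all genes listed. P4hb, a subunit of prolyl hydroxylase, was at 1302, P4ha1, its catalytic partner, at 650 and Col4a2, a basement membrane collagen, at 415. The fibrillar collagens were lower, with Col1a1 at 17.5, Col1a2 at 38.0 and Col3a1 at 17.8.

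The low value of Serpinh1 goes with a feature of the deposited counts. Their rows are 31616 transcripts, mostly RefSeq entries, and Serpinh1 has 3 of these rows, while each of the other 8 genes has 1. Genes with several rows make up 3794 of the 25905 genes. The median over them was 0.806, while it was 12.9 for the 22086 genes with 1 row, and 24.6% of them were at 10 or more, against 51.7%. Shared windows were counted for the 2811 genes with several rows whose rows were all matched to GENCODE transcripts. Within these 2811 genes, the level went with the sequence that their transcripts share. Where at most 10% of the 75-base windows were in 1 transcript alone, the median was 0.249, and where more than 75% were, it was 80.4. In Serpinh1, 21.5% of 2491 windows were in 1 of its 3 transcripts alone. The 371 genes within 5 percentage points of that share had a median of 1.85, and 97 of them were at 10 or more. The 2 genes under 10 among the collagen enzymes, P4ha2 at 0.852 and Plod2 at 0.452, also had several rows. How the authors' counting treated reads that fall in several transcripts of 1 gene is not given in the sources used here. Its part in the value of Serpinh1 was not tested, and the value cannot be read as the amount of HSP47 RNA in the retina.

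**Figure D5:**
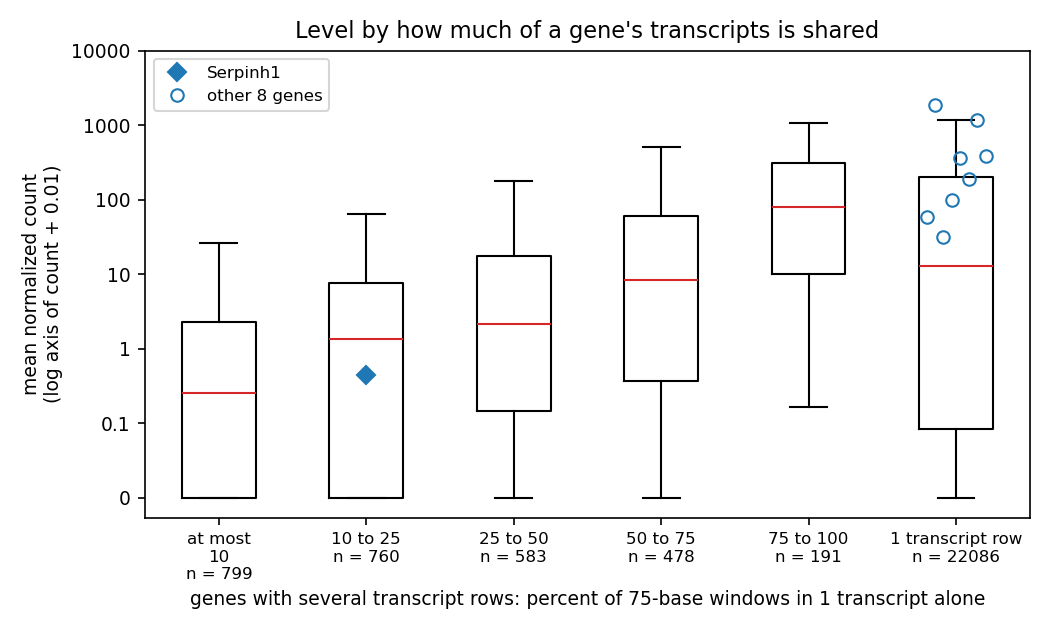
Mean normalized count (log axis of the count plus 0.01) of genes with several transcript rows, grouped by the percent of their 75-base windows found in 1 transcript alone, and of genes with 1 row. Genes with several rows are the 2811 whose rows were all matched to GENCODE transcripts. Boxes are quartiles with the median in red and whiskers at percentiles 5 and 95, Serpinh1 is the diamond, and the other 8 genes are open circles that all lie above the median of genes with 1 row.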

How the data were processed

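RNA-seq libraries of 16 retinas, 8 per group, were sequenced as single-end reads of 75 bases. The authors used Trimmomatic for trimming, TopHat2 for mapping to NCBI mouse build 37.2, and HTSeq for counting, with settings not given in the sources used here. The deposited signal value used for each gene is a pooled mean of normalized counts, which the authors obtained with size factors of DESeq2 1.22.2, and it has no error or n. The remaining columns of that table and the table of selected genes hold the authors' comparison and were not used. The 32 count columns of 2 tables match no label and were not used, so the edgeR test that was planned could not be run. Only the row names of the count table were read.

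The 9 genes and the lists were chosen with earlier results of these data known. Named are all 9 genes and the 3 most abundant genes of each list, and genes named beyond this were chosen after their values were seen. Lengths came from GENCODE M21 (GRCm38) by RefSeq accession, for 76.6% of genes and all 9 described. Where 3 accessions matched, their mean length was used. The assembly is later than that of the mapping, and no position was compared with it. Promoters came from RefSeq on GRCm38.p6. A mean of 10 was taken as measured. 1 marker gene is not reported here. The motif search, the window counts and the intervals were tested on simulated data. Scripts ran in Python 3.11.15 with scipy 1.17.1, matplotlib 3.10.9, numpy 2.4.6 and pandas 2.3.3.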

Additional observations from a re-analysis of the deposited data

How the results depend on the processing

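The planned edgeR fit and its alternatives (DESeq2, RLE size factors, no filter, other thresholds, leaving out a library) were not run, since no count column matches a sample. No paired analysis was possible because the count columns carry none of the numbers in the sample titles. Protein identity was not computed, since amino acid sequences were not used here. The order of all 9 genes per kilobase was the same with coding length, while 8 of their 9 values moved outside the counting interval. The number of genes above the median was 7 over genes above 0, 7 on means per kilobase, 5 over genes with a mean of at least 10, and 6 over genes above 0 with 1 transcript row, an alternative chosen after seeing the data. The number of genes with heat shock units fell from 6 to 2 with 3 units and to 2 with 4 units, the latter chosen after seeing the data, and was 7 with 1 mismatch, which 86.7% of all windows pass. Among genes with a mean of at least 10, 11.5% of windows held a pair. Counting error was largest for Serpinh1, at 37.7% against 4.41% or less in the other 8 genes. It does not cover how reads shared by the transcripts of Serpinh1 were counted.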

Other observations

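Apart from Hspd1 and Hspe1, runs of 4 heat shock units were found in the promoter windows of Fam149a, Arpc2, Chordc1, Kctd18 and 2 predicted genes that the deposited table does not list under those symbols. Chordc1, a co-chaperone of HSP90, had a mean normalized count of 314. Arpc2, a subunit of the actin-nucleating Arp2/3 complex, was at 653, Fam149a at 1197 and Kctd18 at 5.77. Runs of 3 units were found in 100 genes of the table, of which 51 were at 10 or more and whose median was 11.8, against 18.3 for all 15317 genes with a window. These genes were chosen after their values were seen, and their response to spaceflight was not analysed here.

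Several marker genes of the retina and its vessels share the feature seen in Serpinh1. Rlbp1, a retinoid-binding protein that is abundant in Müller glia, had 2 transcript rows, 14.1% of windows in 1 transcript alone and a mean normalized count of 1.39. Glul, glutamine synthetase of the same cells, has 1 row and was at 17455. Pecam1 of endothelium had 6.44% of windows in 1 transcript alone and a mean of 0.446. Trpm1, the ON bipolar cell channel, had 2 rows as well, but 75.2% of its windows were in 1 transcript alone and its mean was 2866. Nrl, the rod transcription factor, had a share of 3.37% and a mean of 88.9. Across the lists and markers set down, without the 9 genes, 3 of 17 genes with several rows were at 10 or more, against 85 of 99 genes with 1 row.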
